A study of Mus musculus with 6 samples.

Results

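The genes examined were 38 smooth muscle contractile and SRF target genes, the parts of the actomyosin machinery and the transcription factors that drive it. They were chosen by name out of the 55487 genes in the count table, with no measured value as a criterion but with earlier results of these data known. All 38 were found in the table and all 38 passed the filter on low counts, among 14531 genes tested. They were measured by stranded mRNA sequencing of mPASMCs, cultured mouse pulmonary arterial smooth muscle cells, transfected with a control siRNA (si-NC, 3 libraries numbered 1 to 3) or with an siRNA against the long noncoding RNA *Snhg18* (si-*Snhg18*, 3 libraries with the same numbers). All 6 libraries came from commercially supplied primary cells grown in medium with fetal bovine serum and transfected with Lipofectamine, with no other genetic change. The strain, age and number of the source animals, the oxygen level of the sequenced cells and the time from transfection to harvest are not given in the sources used here. Nothing says that the libraries of a group came from separate cultures, so p-values measure the spread between these libraries, which may be technical.

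In smooth muscle, thin filaments of actin, covered by tropomyosin, calponin, transgelin and caldesmon, slide along filaments of smooth muscle myosin once the myosin regulatory light chain is phosphorylated. The genes for these proteins share a regulator, serum response factor (SRF), which binds a short DNA element called the CArG box. Its partners decide which targets are active: myocardin and the myocardin-related factors drive contractile genes, and factors of the Elk family, activated by growth signals, drive immediate-early genes. Pulmonary arterial smooth muscle cells lose contractile proteins when they turn to proliferation, and the level of these genes is used as a measure of that state.

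The targeted RNA was lower in every si-*Snhg18* library. *Snhg18* (ENSMUSG00000096956, chr15:32240565-32244662 on the minus strand of GRCm38) stood at 23.5, 22.4 and 22.2 CPM (counts scaled to the library's total and normalized by TMM) in si-NC 1, 2 and 3, and at 10.6, 11.2 and 9.97 CPM in si-*Snhg18* 1, 2 and 3. Its log2 fold change was -1.10 ± 0.099 (SE) and its edgeR adjusted p was 0.00727. The libraries held 18097718 to 25988746 counted reads, and the 38 genes together took 2.17% to 2.55% of them. The libraries numbered 2 stood apart from the others of their group in many of the genes below, and the fit without the replicate number had a common biological coefficient of variation of 0.218, against 0.101 when the number entered as a block. Adjusted p-values are therefore given from both fits, and a single one is from the fit without the block unless the block is named. In bulk RNA, fewer cells of a type and less RNA per cell cannot be told apart.

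Most contractile genes were lower after si-*Snhg18*, but few differences exceeded the spread between libraries in edgeR when the replicate number was ignored. The log2 fold change was below 0 for 28 genes and above 0 for 10, with a median of -0.17, against 0.0072 over all genes tested. Transgelin (*Tagln*) and tropomyosin 4 (*Tpm4*) fell at an adjusted p under 0.05, and no member rose. These 2 of 38 (5.26%) stand beside 7.36% of all genes called in either direction and 3.71% called lower, so in this fit the count does not set the contractile genes apart. DESeq2 without the block called 11 members (28.9%, against 14.6% of all genes). Of these, 9 were lower and 2 higher, while 7.24% of all genes were called lower. At an unadjusted p under 0.05 in edgeR without the block there were 13 members (34.2%, against 24.9% of all genes), 11 of them with a negative fold change (28.9%, against 12.1%). When the replicate number entered the fit as a block, 15 of 38 (39.5%) passed, against 27.2% of all genes: 13 fell (34.2%, against 13.6% of all genes) and 2 rose (5.26%, against 13.6%). In 12 of 38 genes (31.6%) every si-*Snhg18* library lay below every si-NC library, which held for 15.5% of all genes, and in 3 (7.89%, against 15.4%) every si-*Snhg18* library lay above. In 19 genes (50%) the si-*Snhg18* library was lower in all 3 same-numbered pairs, against 30% of all genes. These shares describe the list, which was chosen with earlier results of these data known, and were not tested.

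**Figure D1:**
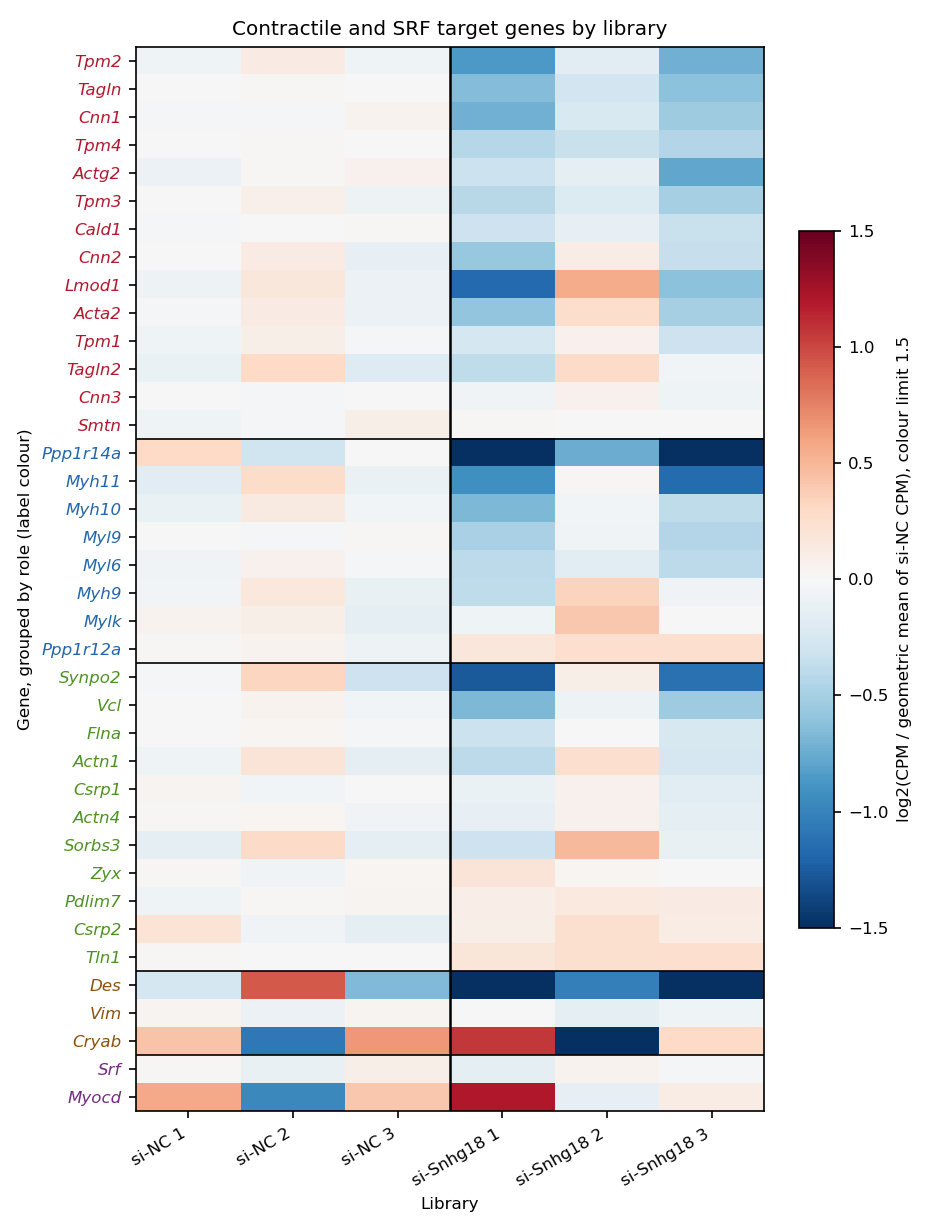
Log2 of each library's CPM over the geometric mean of the si-NC libraries (colour, limited at 1.5) for the 38 genes (rows, grouped by role, ordered by fold change within a role) in the 6 libraries (columns). si-*Snhg18* 1 and 3 are blue over most thin filament and myosin genes, while si-*Snhg18* 2 is closer to the si-NC libraries; *Des* and *Ppp1r14a* are lower in all 3.

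**Figure D2:**
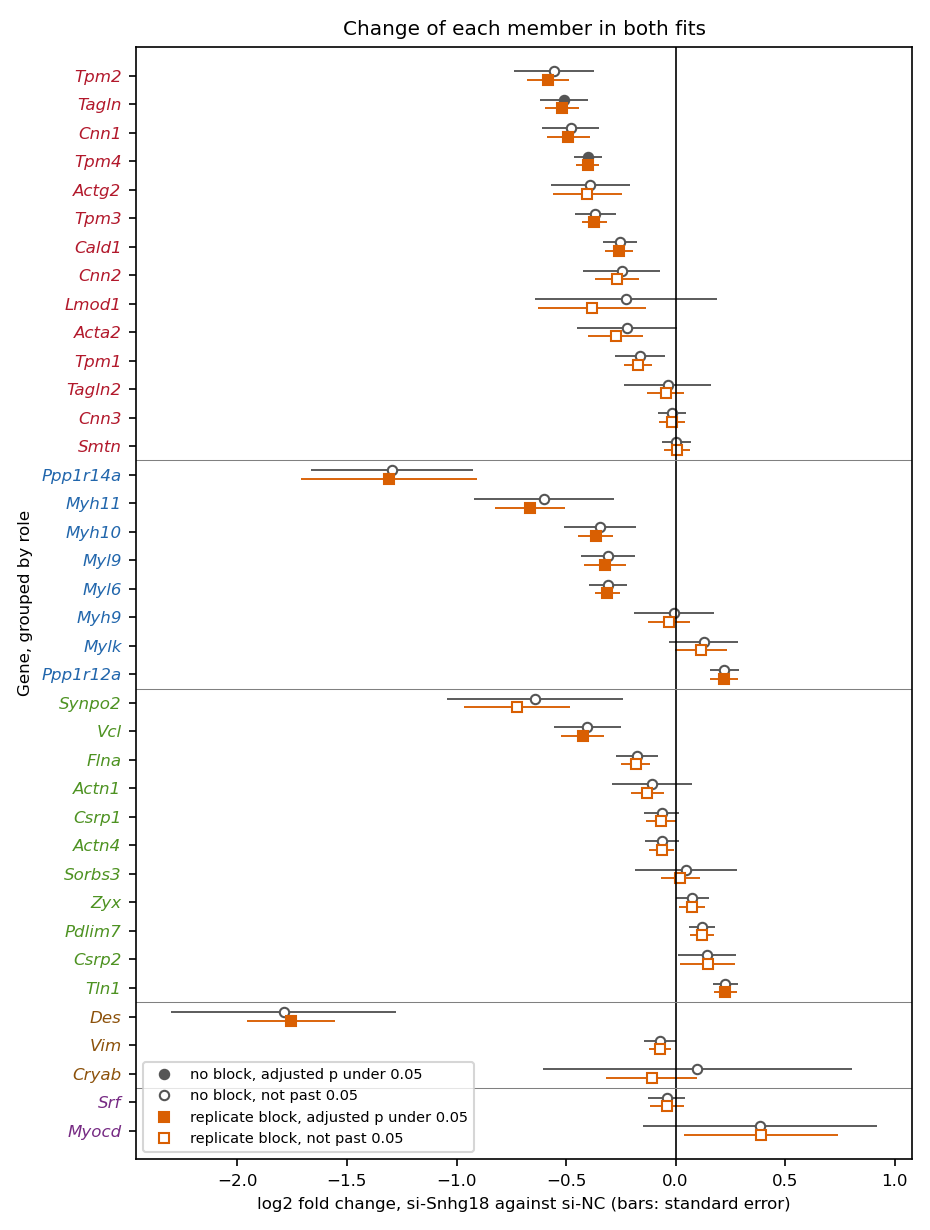
Log2 fold change of si-*Snhg18* against si-NC for each of the 38 genes (points) with its standard error (bars), from edgeR without the block (grey circles) and with the replicate block (orange squares), filled where the adjusted p is under 0.05. The values of both fits are close, with shorter bars under the block; 2 circles and 15 squares are filled.

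The proximal promoters of the members were searched for the element they are known for. RefSeq promoters (250 bases before to 50 bases after a start site, build GRCm38.p6) were matched by symbol for 31 members, with 35 promoters, and exact CArG boxes were sought on both strands, as the only motif. They were present in 5 of these 31 members (16.1%): *Srf*, *Vcl*, *Myl9*, *Myl6* and *Cnn2*. Over all promoters of this length in the table, 1.63% of 32851 held one, and 1.81% of 27025 genes. The list was made of SRF target genes, so its higher share can follow from how it was chosen. The share was not tested. *Actg2*, *Tagln*, *Myh11*, *Csrp2*, *Myocd*, *Sorbs3* and *Cryab* were not searched. The 250 bases before the start site are shown for these 5 promoters, the only ones searched that held the element. They run 5′ to 3′ in the direction of the gene, with the CArG boxes in capitals. They are *Srf* at chr17:46556163-46556412 (minus strand), *Vcl* at chr14:20929148-20929397 (plus strand), *Myl9* at chr2:156775214-156775463 (plus strand), *Myl6* at chr10:128493010-128493259 (minus strand, 1 of its 2 promoters) and *Cnn2* at chr10:79988350-79988599 (plus strand).
Srf: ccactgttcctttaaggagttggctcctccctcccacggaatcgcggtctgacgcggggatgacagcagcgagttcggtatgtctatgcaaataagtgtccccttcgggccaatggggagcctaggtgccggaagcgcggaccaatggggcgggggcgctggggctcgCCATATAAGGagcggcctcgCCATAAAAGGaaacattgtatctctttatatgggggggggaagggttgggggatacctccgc
Vcl: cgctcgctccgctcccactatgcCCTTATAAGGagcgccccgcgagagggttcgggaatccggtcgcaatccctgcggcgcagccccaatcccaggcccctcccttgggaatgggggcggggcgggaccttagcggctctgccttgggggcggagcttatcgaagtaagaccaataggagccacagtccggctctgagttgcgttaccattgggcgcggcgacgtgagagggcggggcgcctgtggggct
Myl9: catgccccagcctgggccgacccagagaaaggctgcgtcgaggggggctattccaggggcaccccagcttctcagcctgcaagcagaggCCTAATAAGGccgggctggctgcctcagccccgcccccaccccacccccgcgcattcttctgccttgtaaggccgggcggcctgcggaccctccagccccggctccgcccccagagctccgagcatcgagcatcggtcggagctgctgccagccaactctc
Myl6: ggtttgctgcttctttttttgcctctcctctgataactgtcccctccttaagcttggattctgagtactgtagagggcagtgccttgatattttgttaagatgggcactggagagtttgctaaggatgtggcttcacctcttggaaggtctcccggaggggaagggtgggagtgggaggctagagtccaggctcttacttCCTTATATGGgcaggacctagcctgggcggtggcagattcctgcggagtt
Cnn2: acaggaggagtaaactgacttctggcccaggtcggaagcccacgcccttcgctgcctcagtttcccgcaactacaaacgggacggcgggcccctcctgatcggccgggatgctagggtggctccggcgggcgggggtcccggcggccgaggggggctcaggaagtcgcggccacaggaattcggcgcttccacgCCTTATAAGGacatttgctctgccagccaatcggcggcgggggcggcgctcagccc
The box begins 227 bases before the start site in *Vcl*, 161 in *Myl9*, 56 in *Cnn2* and 50 in *Myl6*, and *Srf* has 2 boxes, beginning 82 and 62 bases before it. *Myl6*, *Myl9* and *Vcl* fell under the block, while *Cnn2* (adjusted p = 0.0886) and *Srf* (0.740) did not pass in that edgeR fit. The median log2 fold change without the block was -0.31 for the 5 members with a box and -0.14 for the 26 without, of which 8 fell and 2 rose under the block. The members not searched, *Tagln* and *Myh11* among them, are in neither median, and the difference was not tested. Elements farther from the start site, or with another spelling, lie outside this search.

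The thin filament genes leaned one way. Of these 14 genes, 13 had a log2 fold change below 0, with a median of -0.25. Below 0 were also 7147 of the 14531 genes tested. *Tagln* and *Tpm4* fell in both edgeR fits, and *Tpm2*, *Cnn1*, *Tpm3* and *Cald1* fell under the block only. The share of all genes that fell was 3.71% without the block and 13.6% with it.

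*Tagln* (ENSMUSG00000032085, chr9:45929619-45936058, minus strand), an actin-bundling protein of the calponin family used as a marker of differentiated smooth muscle, stood at 679, 692 and 681 CPM in the si-NC libraries and at 435, 562 and 445 CPM in si-*Snhg18* 1, 2 and 3. The groups did not overlap, and the spread in si-*Snhg18* came from number 2, the highest of the 3. The mean went from 684 ± 6.88 to 481 ± 70.3 CPM (SD), 70.3% of the control level. The log2 fold change was -0.51 ± 0.11 (SE), with an edgeR adjusted p of 0.0427, and of 0.00375 with the block. Its widely expressed relative *Tagln2* was measured at 216, 285 and 202 CPM in si-NC and 179, 282 and 225 CPM in si-*Snhg18*. In *Tagln2* both number 2 libraries were the highest of their group, the groups overlapped, and the log2 fold change was -0.036 (adjusted p = 0.933, 0.731 with the block).

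Tropomyosins lie along the actin filament and gate the access of myosin. *Tpm4* (ENSMUSG00000031799, chr8:72130174-72153142, plus strand), a nonmuscle tropomyosin and the most abundant per kb of exon of the 4, gave 1286, 1306 and 1282 CPM in si-NC and 958, 1028 and 948 CPM in si-*Snhg18*. The groups lay far apart relative to their spread, with a log2 fold change of -0.40 ± 0.063 and an edgeR adjusted p of 0.0203 (0.00245 with the block). *Tpm2*, the beta-tropomyosin, fell from 326, 370 and 326 CPM to 188, 301 and 207 CPM, by 0.56 on the log2 scale, with an adjusted p of 0.122 that became 0.00520 under the block. *Tpm3* went from 468, 495 and 444 CPM to 351, 407 and 333 CPM (-0.37, adjusted p = 0.0707, 0.00427 with the block). In *Tpm4*, *Tpm2* and *Tpm3* alike the groups did not overlap, and number 2 was the highest library on both sides. *Tpm1*, the alpha-tropomyosin, overlapped between groups, with means of 744 ± 42.5 and 664 ± 96.5 CPM and adjusted p-values of 0.420 and 0.0900.

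*Cnn1*, the smooth muscle calponin, which restrains the myosin ATPase, was at 74.9, 75.5 and 79.5 CPM in si-NC and at 46.4, 65.6 and 53.0 CPM in si-*Snhg18*. The groups did not overlap, and the mean was 71.8% of control, but the edgeR adjusted p was 0.0812 without the block and 0.0113 with it. Neither nonmuscle calponin passed. *Cnn2* gave 499, 541 and 457 CPM against 336, 536 and 391 CPM, with a log2 fold change of -0.24 and an adjusted p of 0.434, and of 0.0886 with the block. *Cnn3* was nearly level, with 384 ± 4.12 and 380 ± 18.6 CPM and a log2 fold change of -0.015 ± 0.064. Caldesmon (*Cald1*), which like calponin binds actin and inhibits myosin, was at 1880, 1907 and 1934 CPM in si-NC and 1533, 1748 and 1512 CPM in si-*Snhg18*, without overlap (log2 fold change -0.26, adjusted p = 0.103, 0.0209 with the block).

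*Acta2* (ENSMUSG00000035783, chr19:34241090-34255590, minus strand), the smooth muscle alpha-actin by which these cells are recognized, did not follow *Tagln* in every library. It stood at 848, 940 and 813 CPM in si-NC and at 574, 1041 and 614 CPM in si-*Snhg18*. Within numbers 1 and 3 the log2 differences were -0.56 and -0.40, while number 2 was higher by 0.15, and the highest library of all 6 was a knockdown library. The log2 fold change was -0.22 ± 0.23, and the adjusted p was 0.594, and 0.148 with the block. Without si-*Snhg18* 2 it was -0.55, with an edgeR adjusted p of 0.0111. Leaving out any other single library gave values from -0.26 to -0.067, with edgeR adjusted p-values from 0.634 to 0.905. Gamma smooth muscle actin (*Actg2*) was far lower, at 9.91 CPM per kb of exon against 426 for *Acta2* in si-NC. It gave 12.4, 13.4 and 13.8 CPM against 10.6, 12.0 and 7.67 CPM, and passed neither fit (adjusted p of 0.242 and 0.10). *Lmod1*, a leiomodin that nucleates actin filaments, was measured at 24.1, 28.5 and 23.8 CPM and at 11.3, 37.2 and 16.6 CPM. Its lowest and highest values both lay in the si-*Snhg18* group (adjusted p = 0.774, 0.291 with the block). Smoothelin (*Smtn*), found in contractile smooth muscle, was level at 120 ± 6.70 and 120 ± 0.842 CPM (log2 difference 0.0040 ± 0.065, adjusted p = 0.975, 0.953 with the block).

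**Figure D3:**
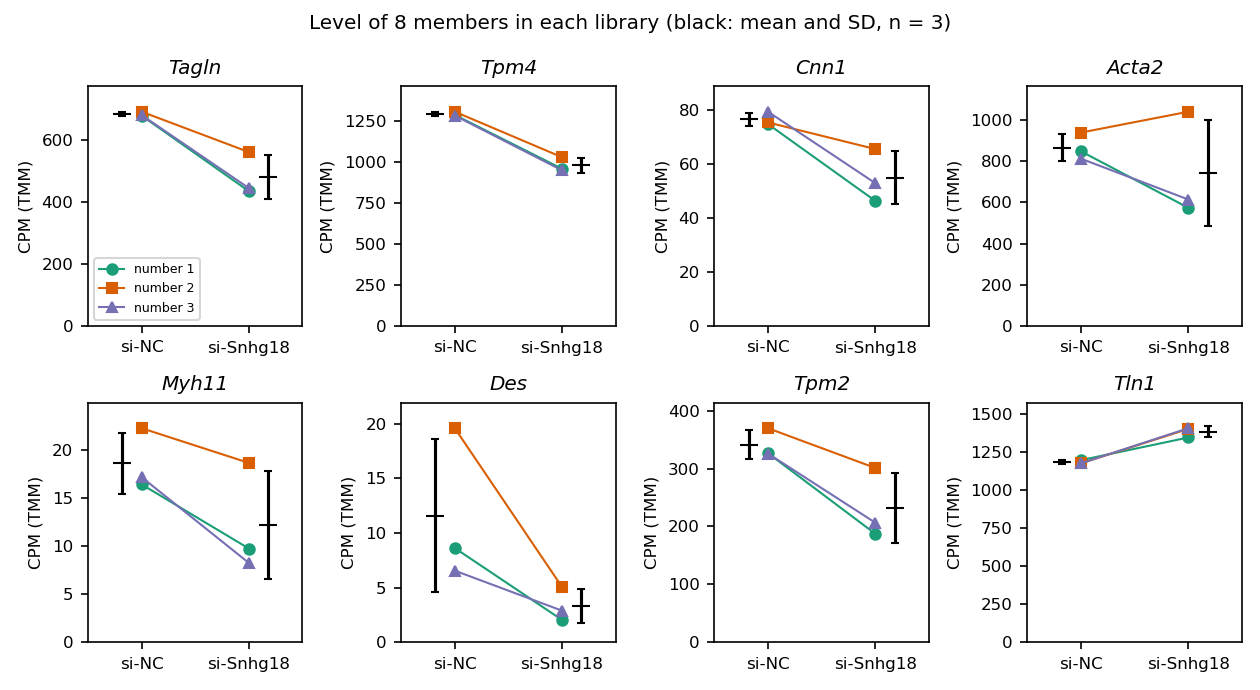
CPM (normalized by TMM, axis from 0) of 8 genes in si-NC and si-*Snhg18*, each library a point, lines joining libraries of the same number, with the group mean and SD in black (n = 3). *Tagln*, *Tpm4*, *Cnn1*, *Tpm2* and *Des* do not overlap between groups; *Acta2* is higher in number 2 only; *Myh11* is lower in each number but overlaps because number 2 is high on both sides; *Tln1* is higher in all 3.

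Among the myosin subunits and the enzymes that set their phosphorylation, 6 of 8 genes were below 0, with a median log2 fold change of -0.31. None passed in edgeR without the block, and with it 5 fell (*Myh11*, *Myh10*, *Myl6*, *Myl9* and *Ppp1r14a*) and *Ppp1r12a* rose. With the block 13.6% of all genes tested fell and 13.6% rose, and without it 7147 of 14531 lay below 0.

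*Myh11*, the smooth muscle myosin heavy chain and the most restricted marker of the lineage, was low throughout, at 16.4, 22.3 and 17.2 CPM in si-NC and 9.77, 18.7 and 8.27 CPM in si-*Snhg18*. It was lower in all 3 pairs, by log2 differences of -0.75, -0.25 and -1.05, but si-*Snhg18* 2 lay above si-NC 1 and 3. The log2 fold change of -0.60 ± 0.32 therefore had an edgeR adjusted p of 0.297, and 0.0207 with the block. *Myh10*, a nonmuscle heavy chain, showed the same arrangement at a higher level, with 302, 355 and 314 CPM against 202, 314 and 248 CPM (-0.35, adjusted p of 0.250 and 0.0158). *Myh9*, the main nonmuscle heavy chain in these cells, gave 2966, 3405 and 2846 CPM against 2353, 3871 and 2956 CPM. Its si-*Snhg18* libraries lay on both sides of the controls (log2 difference -0.0057 ± 0.18, adjusted p = 0.987, 0.840 with the block).

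The essential light chain *Myl6* was at 349, 381 and 359 CPM in si-NC and 276, 327 and 277 CPM in si-*Snhg18*, and the regulatory light chain *Myl9*, whose phosphorylation starts contraction, at 244, 239 and 245 CPM against 173, 235 and 180 CPM. Neither overlapped between groups, though si-*Snhg18* 2 of *Myl9* lay just under the lowest control. Their log2 fold changes were both -0.31, with edgeR adjusted p-values of 0.0916 and 0.184 without the block and 0.00839 and 0.0436 with it. *Mylk*, the kinase that phosphorylates *Myl9*, did not pass, at 14.1 ± 1.16 and 15.4 ± 2.86 CPM (adjusted p = 0.665, 0.510 with the block). The phosphatase side moved in opposite directions. *Ppp1r14a* (CPI-17), an inhibitor of myosin phosphatase, was at 1.99, 1.31 and 1.61 CPM against 0.514, 0.961 and 0.493 CPM, a log2 fold change of -1.29 ± 0.37 (adjusted p = 0.0908, 0.0487 with the block) that rests on at most 46 reads in a library. With library totals, DESeq2 or limma-voom in place of this fit, each with the block, its adjusted p was 0.0535, 0.0824 and 0.0529. *Ppp1r12a*, the targeting subunit MYPT1 of the same phosphatase, was at 81.6, 83.4 and 76.4 CPM against 90.2, 95.7 and 95.8 CPM, higher in each si-*Snhg18* library than in any control (0.22 ± 0.067, adjusted p = 0.102, 0.0373 with the block). DESeq2 with the block did not call *Ppp1r12a*, nor did edgeR with the block when the number 2 libraries were left out.

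Dense plaques anchor actin to the membrane and the matrix. Of the 11 genes of plaques, crosslinkers and adaptors, 6 were below 0 and 5 above, with a median log2 fold change of -0.060. This split was near that of all genes tested, with 7147 below 0 and 7384 above. Vinculin and talin bind each other there, and the first fell and the other rose under the block. *Vcl* went from 537, 562 and 525 CPM to 340, 513 and 375 CPM, without overlap (-0.40 ± 0.15, edgeR adjusted p = 0.171, 0.0179 with the block). *Tln1* was higher in every si-*Snhg18* library, at 1344, 1400 and 1405 CPM against 1196, 1175 and 1175 CPM (0.23 ± 0.058, adjusted p = 0.0692, 0.0191 with the block). Number 2 of *Tln1* did not stand apart in either group. With the block and without the number 2 libraries, edgeR did not call *Tln1*.

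The other plaque genes passed in neither fit. Filamin A (*Flna*), an actin crosslinker, was at 2818 ± 59.5 and 2495 ± 302 CPM (-0.18, adjusted p = 0.314, 0.0815 with the block). The alpha-actinins *Actn1* and *Actn4*, which bundle filaments in dense bodies, had log2 fold changes of -0.11 ± 0.18 and -0.060 ± 0.078. *Synpo2* (myopodin), an actin-bundling protein at 4.70 CPM in si-NC, was lower in all 3 pairs, by log2 differences of -1.20, -0.23 and -0.78, with adjusted p-values of 0.372 and 0.0627. The LIM proteins *Csrp1*, *Csrp2*, *Zyx* and *Pdlim7* and the vinexin gene *Sorbs3* lay between -0.063 and 0.14. Of these, only *Pdlim7* did not overlap, at 118, 125 and 127 CPM against 132, 137 and 135 CPM (adjusted p of 0.274 and 0.144).

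Desmin (*Des*, ENSMUSG00000026208, chr1:75360329-75368579, plus strand), the muscle intermediate filament protein that links dense bodies, had the largest fold change of the 38. It stood at 8.63, 19.6 and 6.57 CPM in si-NC and at 2.06, 5.08 and 2.90 CPM in si-*Snhg18*. Number 2 was the highest in both groups, and the groups did not overlap. The mean was 28.8% of control and the log2 fold change -1.79 ± 0.51, with an edgeR adjusted p of 0.0916, and of 0.00154 with the block. The control mean rests on si-NC 2, without which the log2 fold change was -1.18 (adjusted p = 0.208). Vimentin (*Vim*), the filament protein of mesenchymal cells and the highest member per kb of exon, was at 4858 ± 257 and 4619 ± 229 CPM (-0.073, adjusted p = 0.581, 0.316 with the block). *Cryab*, a small heat shock protein that protects desmin filaments, went by number and not by siRNA, with 1219, 429 and 1418 CPM in si-NC and 1890, 281 and 1115 CPM in si-*Snhg18*. Number 2 was lower than the mean of numbers 1 and 3 by log2 differences of -1.61 and -2.37.

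The 2 transcription factors did not pass in either fit. *Srf* was at 80.0, 73.0 and 83.5 CPM in si-NC and 70.9, 81.6 and 77.5 CPM in si-*Snhg18*, and the groups overlapped fully (log2 fold change -0.040 ± 0.086, edgeR adjusted p = 0.806, 0.740 with the block). Myocardin (*Myocd*), the coactivator of contractile genes, was low, at 1.42, 0.490 and 1.27 CPM against 2.22, 0.884 and 1.04 CPM. It rested on 12 to 56 reads in a library, and its log2 fold change of 0.39 ± 0.53 had an adjusted p of 0.698, and of 0.446 with the block.

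Scaled by exon length, the members covered a wide range in si-NC. *Vim* (2215 CPM per kb), *Myl6* (985), *Cryab* (915) and *Tpm4* (716 CPM per kb) were highest, and *Tagln* (429 CPM per kb) and *Acta2* (426) followed close to each other. The rank of *Myl6* rests on the exon length of 369 bases given for it. Before scaling by length it was at 363 CPM, against 1291 CPM for *Tpm4*. At the low end were *Des* at 3.83, *Myh11* at 2.85, *Mylk* at 1.8, *Ppp1r14a* at 1.72, *Synpo2* at 0.678 and *Myocd* at 0.208 CPM per kb. Of the 4 classical markers, *Tagln* and *Acta2* were thus far above *Myh11*, with *Cnn1* between them at 32.2 CPM per kb.

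The share of each paralog in the length-scaled reads of its family was compared to ask whether the smooth muscle forms fell more than their nonmuscle relatives. The 19 shares were tested by an exact two-sided permutation test over the 6 libraries, which cannot give a p under 0.1, so none could pass. In 7 of them the groups did not overlap, and their p of 0.1 became 0.271 after Benjamini-Hochberg adjustment over the 19. Such separation was common in the CPM of all genes tested. Every si-*Snhg18* library lay below every si-NC library in 15.5% of them and above in 15.4%, so the count does not set the shares apart. The shares of a family add up to its whole and are not separate results. *Myh11* made up 0.570%, 0.671% and 0.617% of the myosin heavy chains in si-NC and 0.434%, 0.506% and 0.293% in si-*Snhg18*. The share of the nonmuscle *Myh10* was lower too, at 9.08% ± 0.337 against 7.36% ± 0.204, and that of *Myh9* higher, at 90.3% ± 0.352 against 92.2% ± 0.188, both with no overlap (SD, n = 3, exact p = 0.1). *Cnn1* made up 7.44%, 7.27% and 8.19% of the calponins, against 5.78%, 6.25% and 6.17%, again with no overlap (exact p = 0.1 for *Myh11* and *Cnn1*). *Tagln* made up 74.5% ± 3.33 of the transgelins against 67.8% ± 2.56, with overlap (SD, n = 3, exact p = 0.2).

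Among the actins the smooth muscle form had a higher share. *Acta2* took 14.9%, 15.03% and 15.2% of the length-scaled actin reads in si-NC and 16.2%, 19.5% and 16.5% in si-*Snhg18*, higher in every library (exact permutation p = 0.1). Gamma actin (*Actg1*), a nonmuscle form, took 29.0%, 29.4% and 29.4% against 26.6%, 25.1% and 26.2%, and beta actin (*Actb*) the largest share in both groups, 54.2% ± 0.565 and 55.4% ± 1.501. As levels, *Actb* was at 2944, 3177 and 2717 CPM against 1886, 2704 and 1976 CPM, and *Actg1* at 1581, 1765 and 1505 CPM against 905, 1283 and 935 CPM. Neither passed without the block (edgeR adjusted p of 0.143 and 0.0550), and both fell with it (0.00732 and 0.00151). Among the tropomyosins the share of *Tpm1* was higher, 27.8% ± 0.879 against 24.3% ± 0.562 with no overlap (SD, n = 3, exact p = 0.1), and *Tpm1* was the tropomyosin whose log2 fold change lay nearest to 0 (-0.16). The share of *Tpm2* was lower in all 3 pairs, 15.7% ± 2.30 against 18.1% ± 0.644, with overlap (SD, n = 3, exact p = 0.3).

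**Figure D4:**
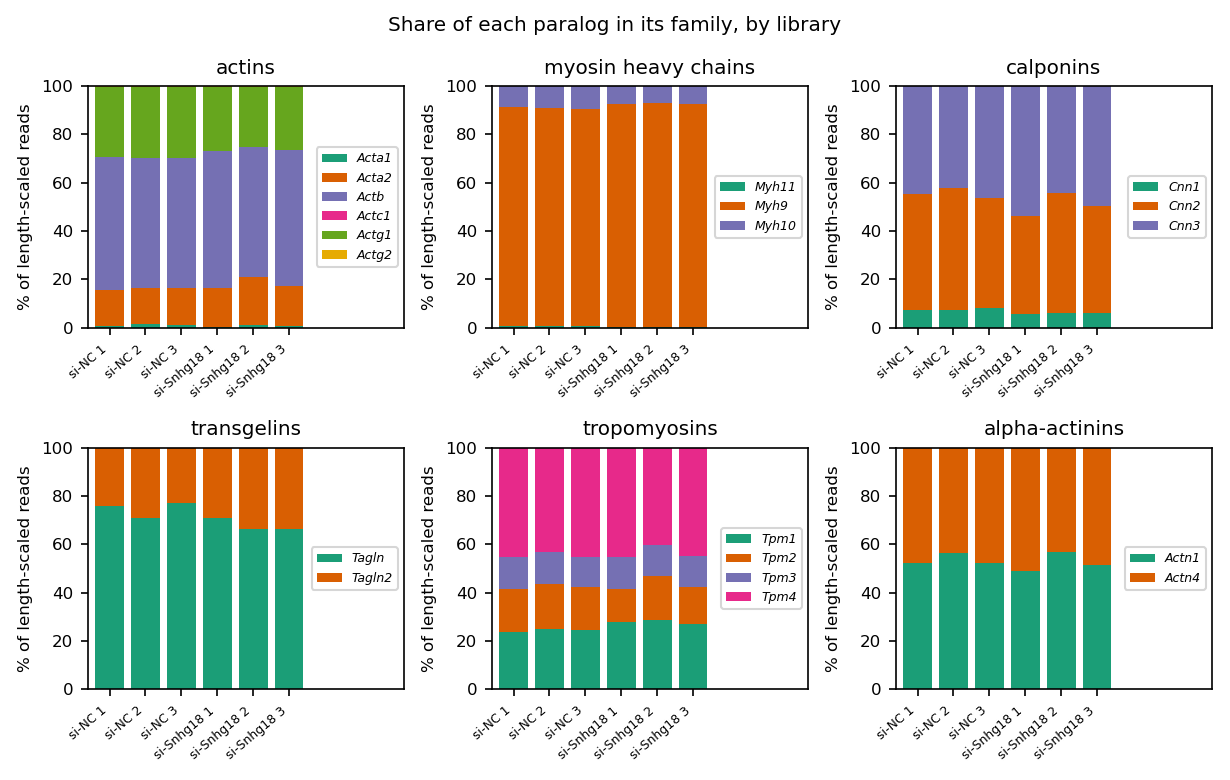
Share in % (y axis, 0 to 100) of each paralog in the length-scaled reads of 6 protein families, stacked for each of the 6 libraries (x axis). *Myh11* is a thin band under 1% in every library, the *Acta2* band is taller in the 3 si-*Snhg18* libraries (16.2% to 19.5%) than in si-NC (14.9% to 15.2%), and *Actb*, *Myh9* and *Tpm4* hold the largest shares of their families.

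The size of the difference was not the same in each same-numbered pair. Over the 38 genes, the median log2 difference of si-*Snhg18* and si-NC was -0.30 in number 1, -0.019 in number 2 and -0.28 in number 3, while over all genes tested it was -0.011, 0.00012 and 0.0027. The si-*Snhg18* library was the lower of the pair for 31, 21 and 30 of the 38 genes. In 12 of the 13 genes that fell under the block, number 2 had the smallest difference, and *Des* was the exception, with -2.02, -1.93 and -1.15. *Snhg18* itself differed little between pairs, with -1.14, -0.9995 and -1.14. The number 2 library was also higher than the mean of numbers 1 and 3 in both groups for 25 of the 38 genes, and over all 38 its median log2 difference from them was 0.051 in si-NC and 0.35 in si-*Snhg18*. This count and those for single pairs were not made over all genes tested. There, deviations from the group mean correlated at 0.742 between the number 2 libraries. The calls moved with si-*Snhg18* 2. Without si-*Snhg18* 2, edgeR called 19 members, all lower and among them *Acta2*, which was 50% of the members against 11.7% of all genes called lower and 22.1% called in either direction, so calls increased across all genes as well. Without any other single library it called no member, and only 0% to 2.16% of all genes. Between 8 and 11 members (21.1% to 28.9%) then had an unadjusted p under 0.05, against 16.6% to 20.4% of all genes, and *Tagln* and *Tpm4* passed in 1 of the 6 fits that leave out a library. With the block, leaving out both number 3 libraries left 1 call among the members, *Des*, and 4.44% of all genes, whereas 17 members passed without the number 1 or the number 2 libraries, beside 31.0% and 24.0% of all genes.

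**Figure D5:**
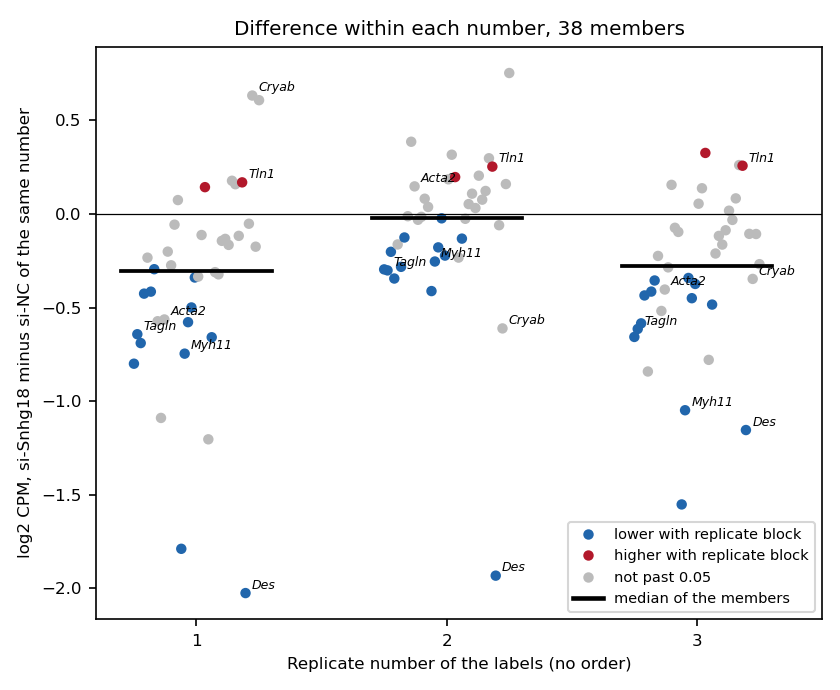
Log2 CPM of si-*Snhg18* minus si-NC of the same replicate number (y axis) for each of the 38 genes (points) in the 3 numbers (x axis, which have no order), with the median as a black bar. The medians lie at -0.30, -0.019 and -0.28; blue points fell and red points rose under the replicate block, and grey points did not pass 0.05.

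Other genes of the pathway were taken from 3 lists. Among 15 genes listed as SRF cofactors and opposing regulators, 2 fell and none rose in the fit without the block. In that fit 3.71% of all genes tested were called lower. The median log2 fold change of the 15 was 0.033. *Klf4*, a factor that represses contractile genes, went from 126, 146 and 111 CPM to 80.1, 95.2 and 74.2 CPM (-0.61, edgeR adjusted p = 0.0464, 0.000828 with the block), and *Prrx1*, a homeobox factor that promotes SRF binding, from 865 ± 33.2 to 628 ± 50.3 CPM (-0.46, adjusted p = 0.0262, 0.00399 with the block). With the block 4 fell and 1 rose, the coactivator *Mrtfa*, at 99.2 ± 16.2 against 119 ± 18.4 CPM (adjusted p = 0.0196 with the block, 0.358 without). *Nexn* was among the 4 that fell (edgeR adjusted p = 0.0237 with the block, 0.263 without). It is also in the list of other smooth muscle and focal adhesion genes, and was counted in both lists. Over all genes tested, 13.6% fell and 13.6% rose with the block. Among 13 immediate-early SRF targets, 12 lay below 0, beside 7147 of the 14531 genes tested, with a median of -0.20. *Nr4a1*, an orphan nuclear receptor, fell from 99.4, 95.8 and 99.9 CPM to 62.6, 68.2 and 58.9 CPM without overlap (-0.64, adjusted p = 0.0106, 0.00141 with the block), and with the block *Egr1*, *Egr3*, *Jun* and *Nr4a1* fell and *Atf3* rose.

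Of 35 other smooth muscle and focal adhesion genes, 31 were tested, and their median was -0.23. Palladin (*Palld*), which organizes actin bundles, fell from 366 ± 45.1 to 216 ± 6.51 CPM (-0.76, edgeR adjusted p = 0.0137, 0.000828 with the block), *Lpp*, a zyxin relative of smooth muscle plaques, from 756 ± 53.5 to 443 ± 78.1 CPM (-0.77, adjusted p = 0.0263, 0.000828 with the block), and *Hspb1*, a small heat shock protein, from 115 ± 7.25 to 81.3 ± 6.94 CPM (-0.50, adjusted p = 0.0265, 0.00155 with the block). *Mprip*, which brings myosin phosphatase to actin filaments, rose from 833 ± 63.6 to 1141 ± 116 CPM (0.45, adjusted p = 0.0475, 0.00163 with the block). With the block 11 of the 31 fell and 4 rose, beside 13.6% of all genes tested in each direction.

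The label of the cells was compared with marker genes. The 8 smooth muscle markers, all of them members, summed to 1750 to 1896 CPM in si-NC and to 1202 to 1851 CPM in si-*Snhg18*. *Acta2* and *Tagln* were the largest, with means of 867 and 684 CPM in si-NC. There *Smtn*, *Cnn1*, *Lmod1*, *Myh11*, *Des* and *Myocd* had means from 120 down to 1.06 CPM. Markers of related mesenchymal cells were also present: 5 of 6 fibroblast markers were tested and summed to 514 to 584 and 375 to 507 CPM, with *Pdgfra* the largest, and the 6 pericyte markers to 428 to 539 and 316 to 483 CPM, with *Pdgfrb* the largest. In the edgeR fit without the block no fibroblast marker and 1 pericyte marker (*Notch3*) fell, and with the block 1 and 3 fell. The fibroblast marker that fell was *Pdgfra*, from a mean of 477 to 376 CPM (adjusted p = 0.189, 0.0112 with the block). *Lum* was lower too, at 1.28 against 0.941 CPM. *Dpt* (23.8 to 28.9 CPM), *Dcn* (42.8 to 44.7) and *Col14a1* (2.16 to 3.64) had higher means after si-*Snhg18*. None of *Lum*, *Dpt*, *Dcn* and *Col14a1* passed either fit. The 6 endothelial markers summed to 11.7 to 12.7 and 13.0 to 15.2 CPM, the 4 epithelial ones to at most 0.572 CPM, and the 6 striated muscle ones to 3.35 to 5.91 and 4.15 to 11.2 CPM. Among the latter *Myh6*, *Ckm* and *Myod1* had no read, *Ttn* passed neither fit, and *Tnnt2* rose under the block, from 4.52 to 6.59 CPM (adjusted p = 0.373, 0.0456 with the block). The 6 leukocyte markers summed to 113 to 155 and 72.0 to 111 CPM. Of these *Cd53* fell, from 109 ± 12.2 to 50.7 ± 0.359 CPM (adjusted p = 0.00727), and *Cd14* rose under the block, from 24.5 ± 11.6 to 36.9 ± 18.7 CPM (adjusted p = 0.539, 0.00369 with the block), while *Adgre1* had no read and *Ptprc* at most 8. The 3 mesothelial markers summed to 11.3 to 20.3 and 5.62 to 9.65 CPM. The part of these markers' cells in the values of the contractile genes was not tested.

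Some members share stretches of sequence with other genes. Windows of 50 bases that also occur in transcripts of another gene made up 23.2% of *Tpm3* (with the copy *Tpm3-rs7*), 11.7% of *Tpm4* (with *Gm7809*), 10.3% of *Cnn3* and 8.38% of *Myl6*, and 23 members had none. How the counting treated reads from such stretches and the strand is not given in the sources used here. On the opposite strand, *Ap3m1* covers 25.5% of the exons of *Vcl* and had 11363 reads against 67394 over the 6 libraries, and *Gm48529* covers 62.4% of those of *Tagln*, with 397 reads against 82493.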

How the data were processed

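The data were 3 si-NC and 3 si-*Snhg18* libraries of transfected mPASMCs, prepared with the TruSeq Stranded mRNA kit. The authors deposited unnormalized counts of reads per gene, and the submitters' processing notes name HISAT2 and mm10. The counting program, strand setting and annotation are not given in the sources used here. Groups and replicate numbers come from the sample labels, and all count columns were used.

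The groups were compared by edgeR 4.0.16 under R 4.3.3, using filterByExpr with a minimum count of 10, TMM factors, glmQLFit and glmQLFTest, and Benjamini-Hochberg adjustment over the 14531 genes kept, with 0.05 as threshold. CPM are scaled by TMM, and log2 CPM carry a prior count of 2. A count of 3 reads equals 0.115 to 0.166 CPM; this floor covers counting error only. The scripts were tested on simulated data.

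The labels number the repeats but do not say that libraries with the same number belong together, so pairs and blocks here follow the numbers only. Deviations from the group mean correlated between same-numbered libraries at 0.410, 0.742 and 0.359 over the genes tested (mean 0.503), so the fit with the number as a block is given beside the planned fit without it; exchanging numbers 1 and 3 gave a mean of 0.475.

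The 38 members, their roles, the pathway lists, the markers and the rule for named genes were chosen with earlier results of these data known. Named were all members, *Snhg18*, *Actb*, *Actg1* and at most 4 genes of a list that passed without the block. *Mrtfa*, *Nexn*, the block's calls among immediate-early genes and single markers were added after values were seen. The results of 1 pathway list are not reported here. Alternatives were RLE factors, library totals, DESeq2 1.42.0, limma-voom (limma 3.58.1), other filters and thresholds, the replicate block, and leaving out libraries.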

Additional observations from a re-analysis of the deposited data

How the results depend on the processing

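Of the genes tested, 1069 were called and 2 members. With the replicate block these were 3954 and 15, with RLE factors and the replicate block 3958 and 15, with library totals and the replicate block 3892 and 13, with DESeq2 2124 and 11, with DESeq2 and the replicate block 3166 and 13, and with limma-voom and the replicate block 3981 and 14. *Ppp1r14a* was among the members not called with library totals, DESeq2 or limma-voom and the replicate block. *Myl9* was not called with library totals and the block, and *Ppp1r12a* was not called with DESeq2 and the block. Neither *Ppp1r12a* nor *Tln1* was called with the block when the number 2 libraries were left out. At an adjusted p under 0.1 without the block there were 1964 and 8. Library totals without TMM factors left 1 member, *Tpm4*, and no member passed 0.05 together with a 1.5-fold change. Leaving out 1 library gave 0 to 3282 genes and 0 to 19 members. Leaving out both libraries of number 1, 2 or 3 gave 0, 4020 and 0 genes and 0, 21 and 0 members, and with the replicate block 4542, 3504 and 651 genes and 17, 17 and 1 members. Scaling moved the median of all genes by under 0.02.

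Log2 fold changes changed sign in members that passed neither fit. *Cryab* went from 0.10 to -0.11 with the replicate block, -0.10 with library totals and the block, -0.10 with RLE factors and the block, -0.11 with DESeq2 and the block, -0.11 with limma-voom and -0.063 with limma-voom and the block. *Myh9* went to 0.0085 with library totals, and *Smtn* to -0.0087 with no filter. Leaving out 1 library or both of a number without the block, the values ran from -0.22 to 0.13 for *Tagln2*, -0.069 to 0.014 for *Cnn3*, -0.21 to 0.15 for *Myh9*, -0.039 to 0.23 for *Mylk*, -0.037 to 0.056 for *Smtn*, -0.88 to 0.085 for *Lmod1*, -0.33 to 0.017 for *Actn1*, -0.14 to 0.018 for *Srf*, -0.14 to 0.70 for *Myocd*, -0.23 to 0.21 for *Sorbs3* and -0.55 to 0.55 for *Cryab*. With the replicate block and without number 1, *Tagln2* was at 0.063, *Myh9* at 0.11, *Smtn* at -0.034, *Srf* at 0.023 and *Cryab* at -0.48. The edgeR adjusted p of *Cryab* in that fit, 3.48e-07, rests on the pairs of numbers 2 and 3 alone (log2 differences of -0.61 and -0.35). The pair of number 1, left out there, differed by 0.63. With the block and without number 2, *Smtn* was at -0.014 and *Sorbs3* at -0.078, and without number 3 *Cnn3* was at 0.013. The causes were not tested. The shares of *Acta2*, *Myh11*, *Cnn1*, *Tagln* and *Tpm2* in their families kept their direction without length scaling and when any 1 library was left out, and that of *Actn1* ranged from -3.32 to 0.629 percentage points. *Myocd* and *Ppp1r14a* rest on at most 56 and 46 reads in a library, and 3 libraries per group limit every single-gene test.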

Other observations

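Members that changed in opposite directions can lie side by side. *Tpm2* and *Tln1* are both on chromosome 4, 7.753 kb apart, and under the replicate block *Tpm2* fell (log2 fold change -0.58, edgeR adjusted p = 0.00520) while *Tln1* rose (0.23, 0.0191). The other members on shared chromosomes lie at least 327 kb apart where they lie within 500 kb, with *Ppp1r14a* near *Actn4* and *Lmod1* near *Csrp1*.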
